A study of Mus musculus with 6 samples.

Results

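DNA damage response and repair genes were compared between i2PS cells and E14TG2A cells. The i2PS cells are a pluripotent line from BALB/c liver, made by reprogramming hepatocytes inside the animal, and E14TG2A is an embryonic stem cell line from the inner cell mass of a 129 blastocyst, used as the reference. Total RNA of 3 samples per line was hybridised to Illumina bead arrays, after both lines had left their fibroblast feeders through 3 passages on gelatin in medium with LIF. The members are 47 named genes, found by their gene symbol on the array and grouped here by repair pathway. They carried 111 of the 45281 probes. Tested probes had a detection p-value under 0.01 on the 3 arrays of one line or of both, and 40 of the 47 members passed this filter, among 8651 tested genes. Strain, tissue of origin and reprogramming differ together between the lines and cannot be told apart. The labels number the samples of a line as replicates and do not say whether they came from separate cultures, so the p-values measure only the spread between these samples, which may be technical. Each group is a single cell line. Fewer cells expressing a gene and less RNA per cell cannot be told apart in such bulk samples.

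The arrays had a mean signal of 340 to 357 in i2PS and of 228 to 403 in E14TG2A, where replicate 1 was the dimmest array. All 6 markers of pluripotent cells (Pou5f1, Sox2, Nanog, Zfp42, Esrrb and Tdgf1) were detected on every array. Their summed normalized signal was 24870 to 25930 in i2PS and 19940 to 20410 in E14TG2A, with Esrrb the brightest of them. By gene, the log2 differences, i2PS minus E14TG2A, were not uniform. Zfp42 (0.37), Esrrb (0.44) and Tdgf1 (0.47) were higher in i2PS (limma adjusted p under 0.05). Pou5f1 (0.10), Nanog (0.53) and Sox2 (-0.25) did not pass (0.54, 0.086 and 0.113). Of 8 fibroblast genes, Thy1 was detected on all arrays, Dcn and Pdgfra on 1 i2PS array each, Col1a1 on 2 E14TG2A arrays and the other 4 on none. Their summed signal was 242 to 301 in i2PS and 220 to 241 in E14TG2A. Thy1 was higher in i2PS by 0.84 (limma adjusted p = 0.00268), while Col1a1 was brighter in E14TG2A. None of 5 hepatocyte genes, Alb among them, was detected on any array.

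Cells mend DNA by several routes. Base excision repair removes small damaged bases, nucleotide excision repair cuts out bulky lesions, mismatch repair corrects copying errors, and breaks across both strands are either rejoined end to end or copied from a sister chromatid by homologous recombination, with the Fanconi anaemia proteins clearing crosslinks between strands. The kinases Atm and Atr sense the damage and signal it through Chek2 and Chek1. Mouse pluripotent cells cycle fast and spend much of the cycle in S phase. They are known for high expression of repair genes and for a preference for homologous recombination.

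In these lines the members differed by modest amounts and mostly in one direction. The i2PS arrays were higher for 17 of the 40 tested members and lower for 3, while 20 missed the threshold (limma, Benjamini-Hochberg adjusted p under 0.05 over all tested genes). Over all 8651 genes 43.7% passed, 23.3% higher and 20.4% lower, whereas 42.5% of the tested members were higher and 7.5% lower. The median difference of the members was 0.28, beside 0.03 over all genes (log2, i2PS minus E14TG2A), and their mean was 0.25. Set against the mean of the E14TG2A arrays, i2PS replicates 1, 2 and 3 gave member medians of 0.27, 0.33 and 0.25. The mean of the i2PS arrays minus E14TG2A replicates 1, 2 and 3 gave 0.35, 0.29 and 0.20. With a size of at least 0.5 asked for as well, 13 members passed, or 32.5%, beside 29.7% of all genes. No tested member reached a 2-fold difference, which 7.8% of all genes did, and for 37 of the 40 the 95% confidence interval lay within 2-fold in both directions, as it did for 80.8% of all genes. The lines did not overlap in 27 of the 40 members, or 67.5%, against 55.8% of all genes. The count of 17 was 9 without i2PS replicate 3 and 2 when the arrays were set to equal medians in place of quantile normalization. With equal medians the calls left were Ung and Fanca, both higher, and the other 18 were lost.

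**Figure D1:**
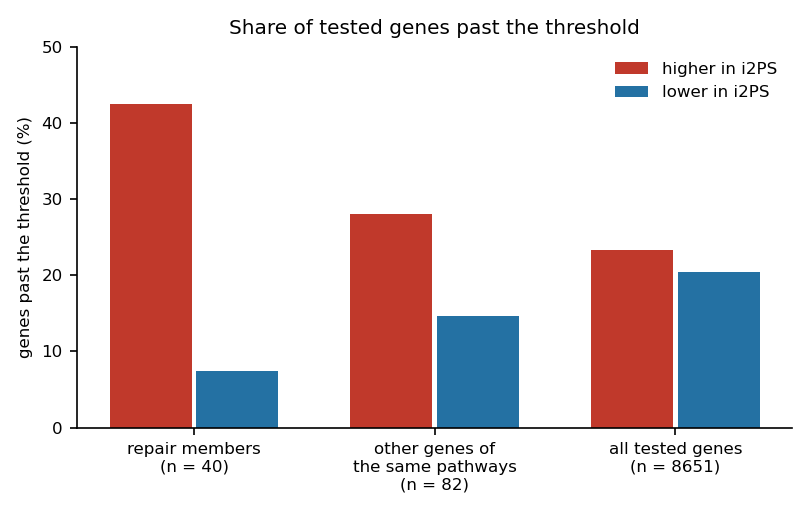
Percent of tested genes past the threshold (vertical axis) that were higher (red) or lower (blue) in i2PS, for the 40 tested members, for 82 other tested genes of the same pathways and for all 8651 tested genes. Bars for the members stand at 42.5% and 7.5%, beside 23.3% and 20.4% of all genes.

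**Figure D2:**
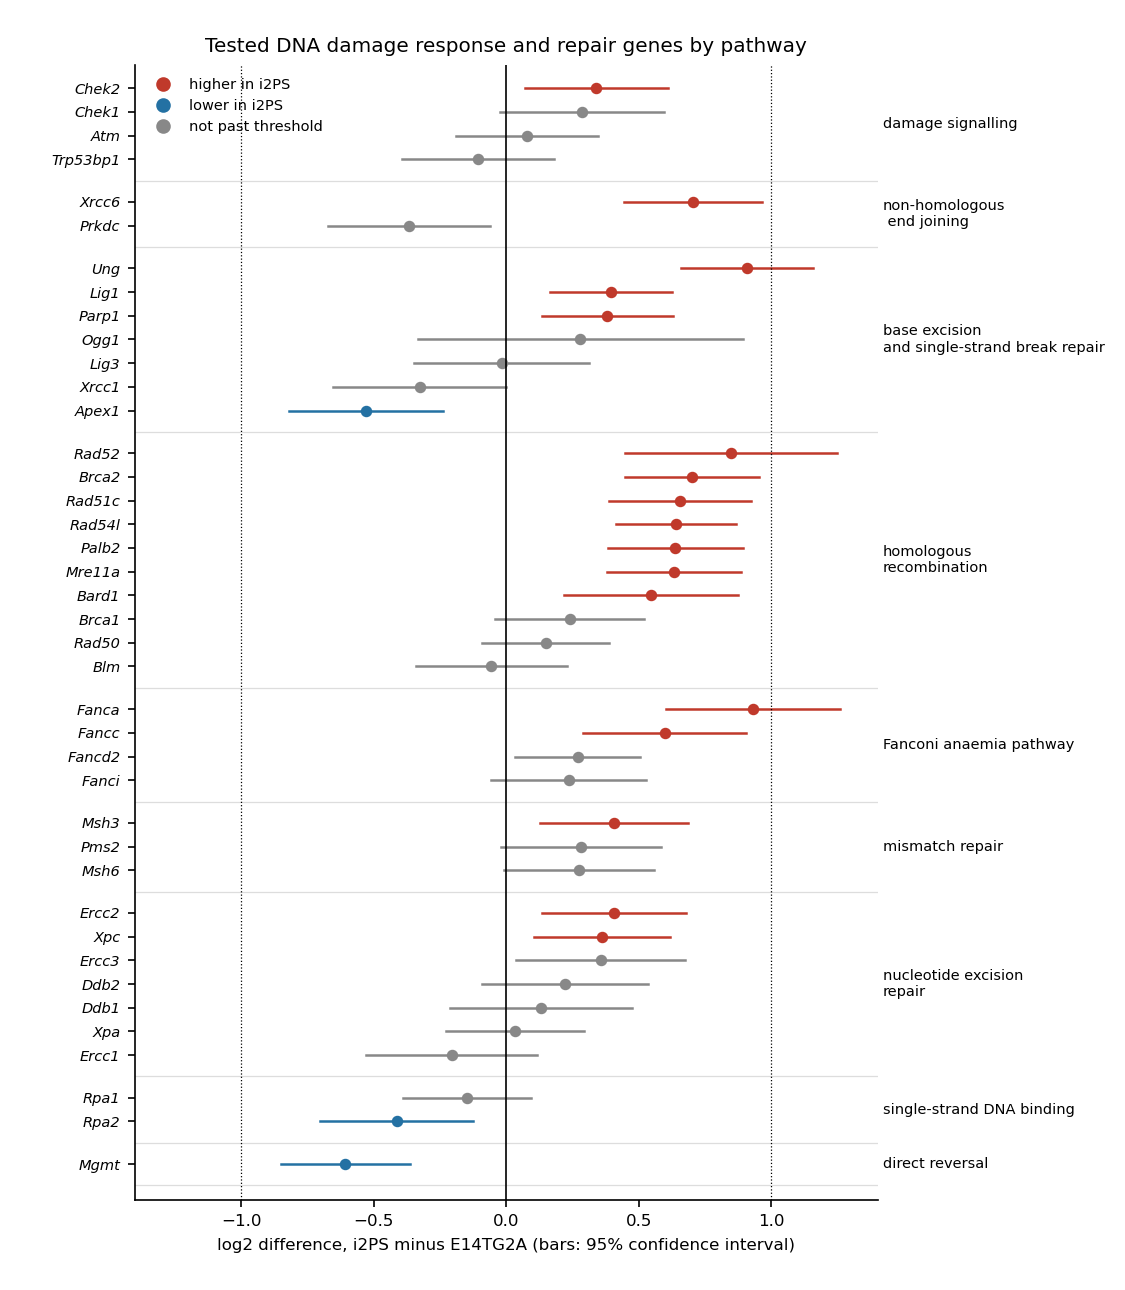
Log2 difference of each tested member, i2PS minus E14TG2A (horizontal axis), with its 95% confidence interval from 3 arrays per line, grouped by pathway; dotted lines mark a 2-fold difference. The members of homologous recombination have the highest median, 0.64, beside 0.43 for the Fanconi anaemia pathway and 0.22 for nucleotide excision repair. By the mean, homologous recombination (0.50) and the Fanconi anaemia pathway (0.51) are alike.

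Promoters of some members that rose are shown with a motif of the E2F factors, which are known to drive genes of S phase. The motif was chosen with values known, and whether E2F factors have a part in the differences was not tested. A set of 4 spellings was searched on both strands, TTTCCCGC, TTTGGCGC, TTTCGCGC and TTTGCCGC, in the RefSeq promoters of GRCm38.p6, which run from 250 bases before to 50 bases after a start site. A spelling can overlap its neighbour on the other strand, as in Msh3. Promoters were found for 40 of the 47 members, and 10 of these genes (25.0%) held at least 1 motif, beside 5.13% of 7054 tested genes and 2.6% of all 27025 genes of the promoter table. Among the members that were higher in i2PS, 7 of 16 with a promoter held one (Bard1, Chek2, Brca2, Lig1, Rad51c, Msh3 and Xrcc6), against 1 of 15 that did not pass (Msh6), 0 of 3 that were lower and 2 of 6 that were not tested (Fancg and Mdc1). Ung and Fanca, whose rises held under every alternative, are not among the genes with a motif. The groups follow the main calls, and those of Chek2, Msh3 and Msh6 changed in 9, 5 and 4 of the 18 alternatives. Over all tested genes the motif was in 6.18% of those higher, 3.31% of those lower and 5.35% of those that did not pass. The 4 promoters below belong to the members that rose by at least 0.5 and hold the spelling TTTCCCGC, which is in capitals and reads GCGGGAAA where it lies on the reverse strand. A match describes these letters and shows no binding.
Brca2 promoter, chr5:150522371-150522670, + strand: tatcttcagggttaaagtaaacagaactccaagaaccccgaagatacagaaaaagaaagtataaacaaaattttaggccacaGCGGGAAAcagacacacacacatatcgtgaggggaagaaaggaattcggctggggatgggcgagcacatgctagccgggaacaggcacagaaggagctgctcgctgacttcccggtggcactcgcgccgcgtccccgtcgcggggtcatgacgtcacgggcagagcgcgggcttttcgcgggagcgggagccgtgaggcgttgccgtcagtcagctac
Rad51c promoter, chr11:87404905-87405204, - strand: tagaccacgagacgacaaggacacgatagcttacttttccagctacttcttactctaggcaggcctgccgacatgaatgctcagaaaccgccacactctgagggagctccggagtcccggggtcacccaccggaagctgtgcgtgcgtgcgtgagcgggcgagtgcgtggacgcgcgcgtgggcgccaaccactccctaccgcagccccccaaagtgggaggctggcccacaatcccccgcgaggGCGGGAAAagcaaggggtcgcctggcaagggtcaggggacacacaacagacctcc
Bard1 promoter, chr1:71102923-71103222, - strand: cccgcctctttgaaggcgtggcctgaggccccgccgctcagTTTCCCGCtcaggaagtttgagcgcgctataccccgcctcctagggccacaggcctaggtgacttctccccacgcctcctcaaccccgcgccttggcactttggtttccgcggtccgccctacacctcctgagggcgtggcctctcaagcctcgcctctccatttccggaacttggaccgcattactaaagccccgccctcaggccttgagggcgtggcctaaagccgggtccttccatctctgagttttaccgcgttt
Xrcc6 promoter, chr15:82016119-82016418, + strand: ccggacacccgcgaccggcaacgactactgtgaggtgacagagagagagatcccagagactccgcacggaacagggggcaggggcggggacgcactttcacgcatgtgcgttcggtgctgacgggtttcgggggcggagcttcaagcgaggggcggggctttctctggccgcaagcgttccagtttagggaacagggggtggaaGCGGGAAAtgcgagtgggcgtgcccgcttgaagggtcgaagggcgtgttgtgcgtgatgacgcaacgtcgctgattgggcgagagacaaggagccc

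Homologous recombination held the most members that rose. Of its 10 tested members, 7 were higher in i2PS and none was lower, or 70% and 0%, beside 23.3% and 20.4% of all genes. The median difference of the 10 was 0.64. Levels are given as normalized log2 signals in replicates 1, 2 and 3 of a line, and differences as log2 values with their SE and 3 arrays per line. Brca2, which loads the recombinase onto single strands, had 8.13, 8.0 and 7.95 on the i2PS arrays, against 7.30, 7.23 and 7.46 on the E14TG2A arrays. Every i2PS array lay above every E14TG2A array, and the difference was 0.70 ± 0.11 (adjusted p = 0.00113). A further Brca2 probe pointed the same way at 0.31 ± 0.15 and did not pass (adjusted p = 0.114 over all probes). Palb2, which ties Brca2 to Brca1, had 8.12, 8.21 and 8.12 in i2PS and 7.35, 7.55 and 7.63 in E14TG2A, a difference of 0.64 ± 0.11 (adjusted p = 0.00189) with no overlap.

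Rad51c, a paralog of the recombinase, had 8.61, 8.27 and 8.42 in i2PS and 7.70, 7.78 and 7.84 in E14TG2A, or 0.66 ± 0.12 (adjusted p = 0.00211). Its other detected probe also rose, by 0.47 ± 0.14. Rad54l, a motor protein that helps the recombinase invade the sister strand, had 9.76, 9.68 and 9.75 in i2PS and 9.17, 9.05 and 9.06 in E14TG2A, or 0.64 ± 0.10 (adjusted p = 0.00101). Both lines were tight for this gene, with SDs of 0.05 and 0.07. Rad52, which anneals single strands, had 7.78, 7.44 and 7.56 in i2PS against 6.36, 6.84 and 7.04 in E14TG2A. Its E14TG2A arrays spread the most of the HR members that rose (SD 0.35), yet all lay below the i2PS arrays, and the difference of 0.85 ± 0.18 (adjusted p = 0.00457) equals 1.80-fold.

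Partners within a complex did not all pass. Of the complex that binds and trims broken ends, Mre11a, its nuclease, had 9.27, 9.31 and 9.41 in i2PS and 8.76, 8.54 and 8.78 in E14TG2A (0.63 ± 0.11, adjusted p = 0.00191), and all 3 of its detected probes rose. Rad50, the arm of the same complex, differed by 0.15 ± 0.11 (adjusted p = 0.283), and Nbn, its link to Atm, had 3 probes, none of them detected anywhere. Bard1, the partner of Brca1 in a ubiquitin ligase, had 5.85, 5.86 and 5.91 in i2PS and 5.66, 5.17 and 5.16 in E14TG2A, a difference of 0.54 ± 0.15 (adjusted p = 0.0145). Its call ended without i2PS replicate 3 (adjusted p = 0.0533), E14TG2A replicate 2 (0.0538) or E14TG2A replicate 3 (0.0523). Brca1 itself differed by 0.24 ± 0.12 (adjusted p = 0.147), with overlapping lines, and the helicase Blm by -0.06 ± 0.13 (adjusted p = 0.744). Whether partners differ from each other in their response was not tested. With equal medians these 7 differences were larger, from 0.66 for Bard1 to 0.97 for Rad52, but so was their SE, at 0.36 for each, and none passed (adjusted p = 0.0791 for Rad52 to 0.305 for Bard1).

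**Figure D3:**
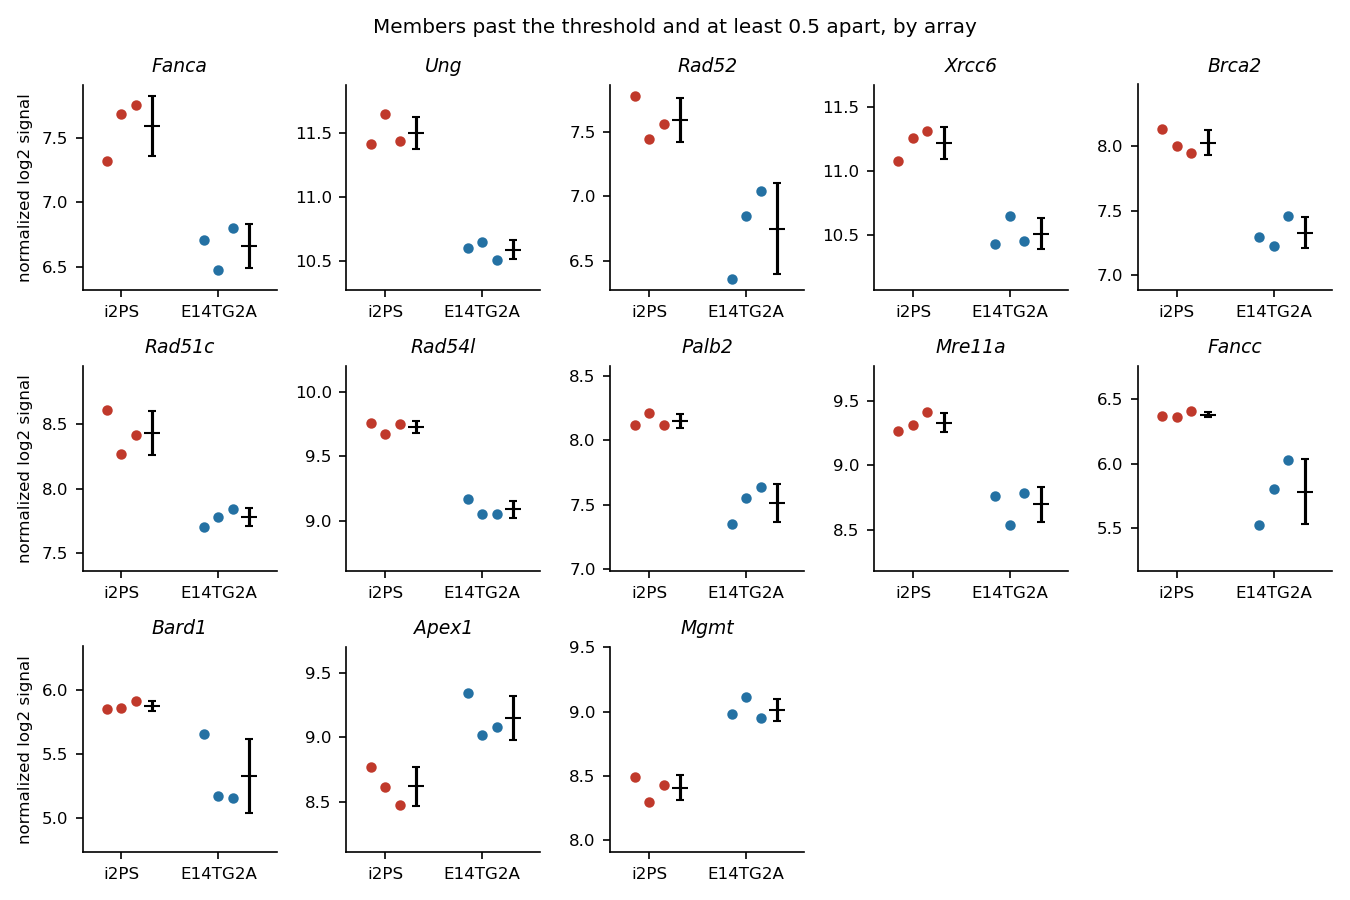
Normalized log2 signal (vertical axis, a range of 1.6 in each panel) on the 3 i2PS arrays (red) and the 3 E14TG2A arrays (blue) for the 13 members that passed and differed by at least 0.5; black marks are the mean and SD of 3 arrays. The lines do not overlap in any panel, which choosing members by call and size favours, and 55.8% of all tested genes did not overlap either. Apex1 and Mgmt are the 2 panels that are lower in i2PS.

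Fanconi anaemia genes pointed the same way, with 2 of 4 tested members higher and none lower, beside 23.3% and 20.4% of all genes. Fanca, a subunit of the core complex that marks crosslinks, had 7.33, 7.69 and 7.76 in i2PS and 6.71, 6.47 and 6.80 in E14TG2A. Its difference of 0.93 ± 0.15 (adjusted p = 9.85e-04) was the largest of all members, and it held under each of the 18 alternatives, between 0.59 and 1.09. This difference rests on 1 probe. The other Fanca probe, which the platform assigns to another sequence record, was detected on no array. Fancc, another core subunit, had 6.37, 6.37 and 6.41 in i2PS and 5.52, 5.80 and 6.03 in E14TG2A (0.60 ± 0.14, adjusted p = 0.00699). A further Fancc probe, at 0.26 ± 0.13, did not pass, and without i2PS replicate 3 the difference was 0.34 and the call ended (adjusted p = 0.110). Fancd2 and Fanci, the pair that the core complex marks with ubiquitin, differed by 0.27 ± 0.10 and 0.24 ± 0.13 (adjusted p = 0.0625 and 0.170). The other detected Fancd2 probe differed by -0.09 ± 0.14 (adjusted p = 0.645 over all probes). Fancd2 passed in 5 of the 18 alternatives, among them the authors' processed table (0.23, adjusted p = 0.026). Fanci passed without E14TG2A replicate 1 (0.35, adjusted p = 0.0324). Fancg, a further core subunit, was detected on no array.

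In base excision and single-strand break repair 3 of 7 members rose and 1 fell. These are 42.9% and 14.3%, beside 23.3% and 20.4% of all genes. Ung, which cuts uracil out of DNA, had 11.41, 11.64 and 11.44 in i2PS and 10.61, 10.65 and 10.51 in E14TG2A. The gap between the lines was several times the spread within them, at 0.91 ± 0.11 (adjusted p = 2.50e-04, 1.88-fold), and it held under each of the 18 alternatives, between 0.63 and 1.10. A further Ung probe rose by 0.59 ± 0.13 and a dim one differed by 0.40 ± 0.20 without passing. Apex1, the endonuclease that cuts the backbone once the base is gone, went the other way, with 8.77, 8.61 and 8.47 in i2PS and 9.34, 9.02 and 9.08 in E14TG2A. It fell by 0.53 (SE 0.13, adjusted p = 0.0096), again without overlap.

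The ligases and the break sensor of this route moved less. Lig1, which seals the last nick and also joins Okazaki fragments, had 10.24, 10.23 and 10.29 in i2PS and 9.76, 9.88 and 9.93 in E14TG2A, a rise of 0.39 ± 0.10 (adjusted p = 0.0125). Its other 3 detected probes lay between -0.06 and 0.20 and did not pass, and the mean of its probes did not pass either (0.17, adjusted p = 0.242). Parp1, which binds nicks and makes poly(ADP-ribose), had 11.95, 12.03 and 12.06 in i2PS and 11.69, 11.72 and 11.48 in E14TG2A (0.38 ± 0.11, adjusted p = 0.0201). Of its other probes, 1 rose by 0.49 ± 0.11 and 1 did not pass at 0.12 ± 0.14. The Lig1 call ended without i2PS replicate 3 (adjusted p = 0.0552), and that of Parp1 without i2PS replicate 2 (0.0686), i2PS replicate 3 (0.0805) or E14TG2A replicate 3 (0.0682).

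The 3 detected probes of Lig3 did not give the same call. The probe that stands for it had 8.14, 8.27 and 8.30 in i2PS and 8.51, 7.96 and 8.30 in E14TG2A, a difference of -0.02 ± 0.15 (adjusted p = 0.934). A further probe gave -0.03 ± 0.15 and did not pass either (adjusted p = 0.886 over all probes). The remaining Lig3 probe rose by 0.61 ± 0.15 (adjusted p = 0.00994 over all probes), with 7.58, 7.59 and 7.65 in i2PS and 6.67, 7.15 and 7.16 in E14TG2A. Xrcc1, the scaffold that holds Lig3, differed by -0.33 ± 0.14 (adjusted p = 0.097). Ogg1, which removes oxidised guanine, lay near background with a difference of 0.28 ± 0.27 (adjusted p = 0.43), and it passed without E14TG2A replicate 1 (0.66, adjusted p = 0.0136).

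Of the end-joining genes only Xrcc6 and Prkdc were tested. Xrcc6, the Ku70 subunit of the ring that grips broken ends, had 11.08, 11.26 and 11.31 in i2PS and 10.43, 10.65 and 10.45 in E14TG2A. The lines were well apart, at 0.70 ± 0.12 (adjusted p = 0.00129), and its other 2 probes rose too, by 0.86 ± 0.14 and 0.71 ± 0.21. The probe at 0.71 was dim. Only 2 E14TG2A arrays detected it, so it passed the filter through i2PS alone and adds little. Prkdc, the kinase that Ku recruits, pointed the other way, with 6.25, 5.85 and 6.08 in i2PS and 6.27, 6.42 and 6.58 in E14TG2A (-0.37 ± 0.14, adjusted p = 0.0541). A further Prkdc probe fell by 0.61 (SE 0.14, adjusted p = 0.00802 over all probes). Prkdc passed as lower in 6 of the 18 alternatives and missed the threshold in the other 12. It passed with the mean of its probes (-0.49, adjusted p = 0.0113), for example. It also passed without i2PS replicate 1 (-0.46, adjusted p = 0.0404) or E14TG2A replicate 1 (-0.45, adjusted p = 0.0243). Xrcc5, the Ku80 partner of Xrcc6, was detected on 1 E14TG2A array, Xrcc4 on none, and the ligase Lig4 on 2 arrays of each line, so none of them was tested.

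Damage signalling showed 1 call among 4 tested members, a rise, or 25% beside the 23.3% of all genes that were higher. Chek2, the kinase that acts below Atm, differed by 0.34 ± 0.12 (adjusted p = 0.045). This call was weak, since it ended with replicate number as a block (adjusted p = 0.0763) as well as without i2PS replicate 1, 2 or 3 or E14TG2A replicate 3 (0.0756, 0.0938, 0.157 and 0.146). In the fit over all probes neither of its detected probes passed. Chek1, its counterpart below Atr, differed by 0.29 ± 0.14 (adjusted p = 0.12), Atm by 0.08 ± 0.12 and Trp53bp1, which steers breaks towards end joining, by -0.11 ± 0.13. For Atm the 95% interval ran from -0.19 to 0.35. Atr and Mdc1, an adaptor at marked chromatin, each had 1 probe, which was detected on no array.

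Mismatch repair had 3 tested members, all with differences above 0, of which 1 passed as higher, or 33.3% beside 23.3% of all genes. Msh3, which recognises small loops, had 6.74, 7.04 and 7.12 in i2PS and 6.61, 6.56 and 6.52 in E14TG2A (0.40 ± 0.12, adjusted p = 0.0257). Another Msh3 probe rose by 0.68 ± 0.21 and the remaining one differed by 0.19 ± 0.17. The call ended without any one of i2PS replicates 2 and 3 and E14TG2A replicates 2 and 3 (adjusted p = 0.0636 to 0.114). Msh6, which recognises single mismatched bases, differed by 0.27 ± 0.13 and passed without E14TG2A replicate 3 (0.38, adjusted p = 0.0471), and Pms2, the nuclease subunit, differed by 0.28 ± 0.13 (adjusted p = 0.107 and 0.118 with all arrays).

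In nucleotide excision repair 2 of 7 tested members rose and none fell, or 28.6% and 0%, beside 23.3% and 20.4% of all genes. All 7 lay within 2-fold by their intervals, as did 37 of all 40 tested members and 80.8% of all genes. Xpc, the damage sensor, differed by 0.36 ± 0.11 (adjusted p = 0.0296), a call that ended without i2PS replicate 2 (0.0857), i2PS replicate 3 (0.118) or E14TG2A replicate 2 (0.0832). Xpa, which checks the lesion, differed by 0.03 ± 0.11, and Ercc1, of the nuclease that cuts on one side, by -0.21 ± 0.14. Ddb1 and Ddb2, which find ultraviolet lesions in chromatin, differed by 0.13 ± 0.15 and 0.22 ± 0.14.

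The helicases of TFIIH that open the helix were less clear. Ercc2 had 6.84, 6.84 and 6.90 in i2PS and 6.40, 6.66 and 6.30 in E14TG2A with the brighter probe (0.41 ± 0.12, adjusted p = 0.0229). Its other detected probe had 5.98, 6.15 and 6.01 in i2PS and 6.55, 6.31 and 6.31 in E14TG2A, and it fell by 0.34 (SE 0.12, adjusted p = 0.0427 over all probes). The 2 probes thus passed in opposite directions, and their mean differed by 0.03 (adjusted p = 0.82). The Ercc2 call also ended without any i2PS array or E14TG2A replicate 3 (adjusted p = 0.0543 to 0.0841). Ercc3 differed by 0.36 ± 0.14 (adjusted p = 0.0679). It passed in 7 of the 18 alternatives, among them replicate number as a block (0.046), the authors' processed table (0.03) and without E14TG2A replicate 3 (0.0311). Its other detected probe differed by 0.09 ± 0.13 and did not pass (adjusted p = 0.607 over all probes).

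Single-strand binding and direct reversal held the other falls. Rpa2, a subunit of the protein that coats single strands, had 9.18, 8.80 and 9.03 in i2PS and 9.55, 9.38 and 9.33 in E14TG2A with its brightest probe, and it fell by 0.41 (SE 0.13, adjusted p = 0.0276). A dim Rpa2 probe, which the platform assigns to another accession, had 5.32, 5.50 and 5.58 in i2PS and 4.86, 4.91 and 4.89 in E14TG2A. It rose by 0.58 ± 0.11 (adjusted p = 0.00342 over all probes). Only 2 E14TG2A arrays detected it, so it passed the filter through i2PS alone. The remaining Rpa2 probe, detected on all arrays, differed by -0.38 ± 0.23 and did not pass (adjusted p = 0.203 over all probes). The Rpa2 call ended without i2PS replicate 2 (0.113), i2PS replicate 3 (0.0715), E14TG2A replicate 1 (0.0505) or E14TG2A replicate 2 (0.0549), and with the mean of its probes (-0.07, adjusted p = 0.65). Rpa1, the large subunit of the same protein, differed by -0.15 ± 0.11 (adjusted p = 0.291).

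Mgmt, which takes methyl groups off guanine and is spent in doing so, was the member with the largest fall. It had 8.50, 8.30 and 8.43 in i2PS and 8.98, 9.11 and 8.95 in E14TG2A, 1.52-fold lower in i2PS (-0.61 ± 0.11, adjusted p = 0.00194). Its other detected probe had 6.23, 6.15 and 6.26 in i2PS against 7.35, 7.35 and 7.11 in E14TG2A, and fell by 1.06 (SE 0.12, adjusted p = 1.71e-04 over all probes). Both probes thus separated the lines without overlap.

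Across the members, 76 of the 111 probes passed the detection filter, and 23 genes had several such probes. In 10 of these genes the probes did not all give the same call, and in 2, Ercc2 and Rpa2, they passed in opposite directions. For Rpa2 this rests on a dim probe that passed the filter through i2PS alone. Over all 12841 tested probes 5219 passed. Of the 7 untested members, Atr, Mdc1, Xrcc4, Nbn and Fancg were detected on no array, Xrcc5 on 1 array and Lig4 on 4 of the 6. The Atr probe had signals of 87.4, 93.1 and 92.3 in i2PS and 85.2, 93.0 and 94.1 in E14TG2A, at or below the array medians of 88.3 to 103.3. These signals bound no difference between the lines.

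**Figure D4:**
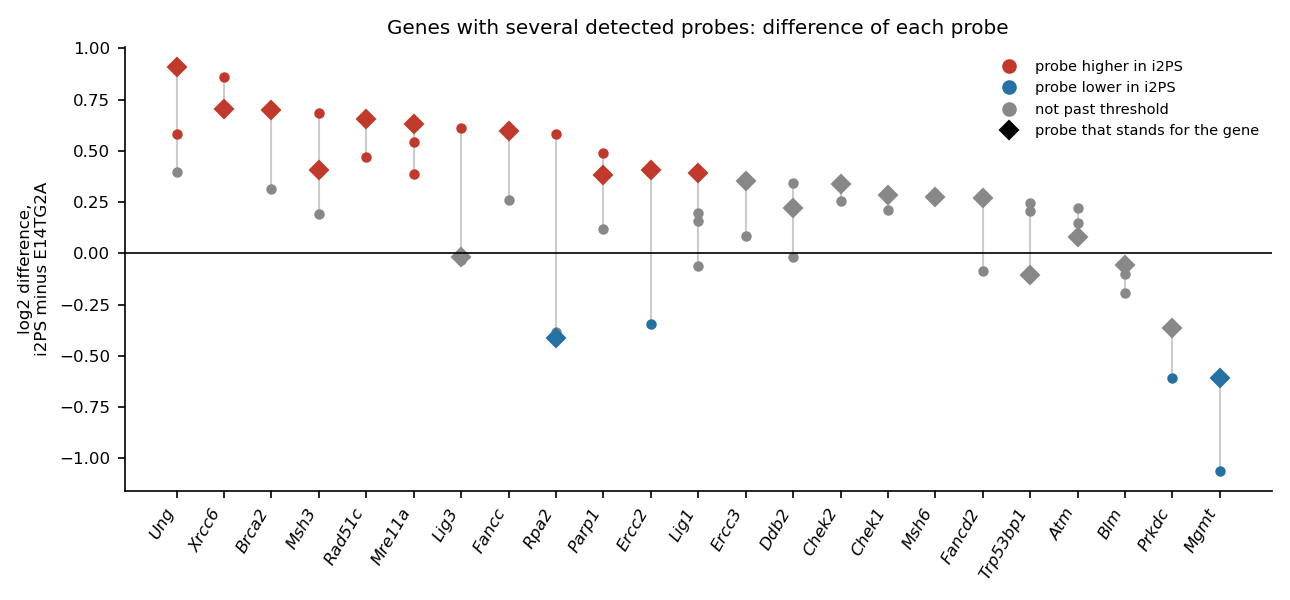
Log2 difference, i2PS minus E14TG2A (vertical axis), of each tested probe of the 23 members that have several; red probes were higher, blue lower and grey not past the threshold over all probes, and diamonds mark the probe that stands for the gene. Mre11a, Rad51c and Xrcc6 rose with every probe and Mgmt fell with both, while Ercc2 and Rpa2 have probes that passed on both sides of 0. A dim Xrcc6 probe and the Rpa2 probe that rose passed the detection filter through i2PS alone.

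Of 112 other genes listed for the same pathways and for translesion synthesis, 100 were found by symbol and 82 were tested. In i2PS 23 of these were higher and 12 lower, or 28.0% and 14.6%, beside the 23.3% and 20.4% of all genes, and their median difference was 0.18. The count of 23 was 15 without i2PS replicate 2, 11 without i2PS replicate 3, 14 without E14TG2A replicate 2 and 15 without E14TG2A replicate 3. In homologous recombination 3 of 10 rose and 2 fell, so that the wider list was more mixed than the members. Wrn, a helicase mutated in a human syndrome of early ageing, rose by 0.91 ± 0.12 (adjusted p = 3.72e-04) and Mus81, a nuclease for joined strands, fell by 0.59 (SE 0.14, adjusted p = 0.00865). Among 13 base excision genes there were 7 rises and 1 fall, or 53.8% and 7.69%, beside the 23.3% and 20.4% of all genes. Of the rises, Mpg lost its call in 14 of 18 alternatives, Parg in 12 of 17, Smug1 in 9 of 18 and Mbd4 in 7 of 18. Mutyh, Nthl1 and Tdp1 lost theirs with equal medians only. Parg and Tdp1 passed the detection filter through i2PS alone. The fall was Apex2, a relative of Apex1, at -0.93 ± 0.11, and Tdp1, which frees trapped topoisomerase, was at least 1.32-fold higher in i2PS because no E14TG2A array detected it.

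Other wider lists held the changes above 2-fold. Mlh3, which acts in mismatch repair and in meiosis, had 8.75, 8.84 and 8.80 in i2PS and 7.39, 7.34 and 7.49 in E14TG2A, a rise of 1.39 ± 0.10 (adjusted p = 1.5e-05). Mlh3 and Tdp1 lie between Exd2 and Ifi27 on chromosome 12, where 59 of 84 tested genes rose and 1 fell, with a median of 0.55, and the part of that stretch in their rise was not tested. Faap100, of the Fanconi core complex, rose by 1.28 ± 0.21 (adjusted p = 0.00114). Of the 11 translesion synthesis genes, whose polymerases copy past lesions, 2 were higher, 2 were lower and 7 did not pass, or 18.2% in each direction beside the 23.3% and 20.4% of all genes, and their median difference was -0.15. Poli rose by 1.02 ± 0.12, with 8.47, 8.57 and 8.61 in i2PS and 7.35, 7.54 and 7.70 in E14TG2A. Polk fell by 1.09 (SE 0.18), with 6.06, 6.15 and 6.02 in i2PS and 6.78, 7.14 and 7.58 in E14TG2A.

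The remaining lists were smaller or mixed. Nucleotide excision repair was the one wider list with falls and no rises, 4 and 0 of 12. These are 33.3% and 0%, beside 20.4% lower and 23.3% higher over all genes. Ercc5, a nuclease that makes one of the cuts, fell most, by 0.73 (SE 0.12, adjusted p = 0.00151). The 18 damage signalling genes held 6 rises and 3 falls, or 33.3% and 16.7%, beside 23.3% and 20.4% of all genes. Etaa1, known in human cells as an activator of ATR, differed by 0.72 ± 0.13 and Rad9a, of the checkpoint clamp, by -0.51 ± 0.12. End joining rose in 1 of 4 cases, the polymerase Poll, at 0.59 ± 0.16. That call was lost without i2PS replicate 2, i2PS replicate 3 or E14TG2A replicate 3 (adjusted p = 0.0506 to 0.0673). The 3 single-strand binding and 2 direct reversal genes gave no call at the threshold, while 2 of 7 Fanconi anaemia genes and both mismatch repair genes, Mlh3 and Pcna, rose. Pcna, the clamp that holds polymerases on DNA, is named after its values were seen. Its difference of 0.38 ± 0.13 (adjusted p = 0.045) lost its call in 9 of the 18 alternatives, among them replicate number as a block (0.0746) and leaving out i2PS replicate 1 (0.149), i2PS replicate 3 (0.124), E14TG2A replicate 1 (0.0708) or E14TG2A replicate 3 (0.129).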

How the data were processed

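Probe signals are linear intensity values, which the authors deposited from GenomeStudio per the submitters' processing notes, with no version or setting given in the sources used here. Their values show no background subtraction and no normalization between arrays. Each signal had a deposited detection p-value, in steps of 1 in 936. A further deposited table of processed intensity values was quantile normalized by the authors, as its values show, and served as an alternative.

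Signals were processed with neqc of limma 3.58.1 in R 4.3.3 (background from the detection p-values, offset 16, quantile normalization, log2). Of the probes, 34885 carried 1 gene symbol in the platform annotation of GEO, updated with RefSeq genes of GRCm38.p6. The detected probe with the highest mean stood for a gene. Lines were compared with lmFit and eBayes, without covariates, and the fit was tested on simulated data. Each member's other probes come from a separate fit over all 12841 tested probes. The number of arrays limits the precision.

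Members, lists and alternatives were chosen with earlier results of these data known. Every member is accounted for. Array values are given for members that passed and differed by at least 0.5 or whose probes disagreed, and 1 rise and 1 fall per wider pathway are named. Mlh3, Poli and Polk are given by array after their values were seen. Motifs were also chosen with values known.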

Additional observations from a re-analysis of the deposited data

How the results depend on the processing

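Of the 20 member calls, 11 held in each of the 17 alternatives other than equal medians, and Ung and Fanca held there too. With equal medians 2 members were higher and 0 lower, as were 4 and 0 of the other pathway genes and 357 and 277 of all genes. The median of the members was then 0.46 and that of all genes 0.19, so that the members lay 0.27 above all genes, beside 0.25 with quantile normalization. Of all genes that passed with at least a 2-fold difference, 56.3% were then higher, against 40.4% with quantile normalization. The cause of the lost calls was not tested. The median of the members was 0.20 without background correction and 0.20 in the authors' processed table. Leaving out each array in turn gave 9 to 19 members higher and 2 to 4 lower, with medians of 0.23 to 0.32. It gave 11 to 25 other pathway genes higher and 10 to 14 lower, and 1432 to 2179 genes higher and 1331 to 2123 lower in all. None of the 20 called members changed direction under the 18 alternatives, and 6 members without a call gained one under at least 1 of them. Same-numbered arrays of the lines did not deviate together (correlations of 0.00886, -0.0467 and 0.0682), and fitting replicate number as a block left 17 members higher and 3 lower, while Chek2 lost its call and Ercc3 gained one. A slide block was not run, because no slide is named in the sources used here. Bard1, Ogg1 and part of the probes of Ung, Xrcc6, Rpa2 and Lig1 lie close to background, which limits the precision of their differences.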
